A study of Mus musculus with 11 samples.

Results

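Complex I, or NADH:ubiquinone oxidoreductase, is the largest complex of the mitochondrial respiratory chain. It takes electrons from NADH, passes them along a chain of iron-sulphur clusters to ubiquinone, and pumps protons across the inner membrane. Its N arm binds NADH, its Q arm reduces ubiquinone, and its membrane arm, built in modules named after the mitochondrial subunits ND1, ND2, ND4 and ND5, moves the protons. The core subunits of the membrane arm are encoded by mtDNA, and all the others, core and supernumerary, by nuclear genes whose symbols begin with Nduf. Neurons depend on the respiratory chain for most of their ATP.

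The nuclear subunits described here were the genes of the deposited count table whose symbol has the form of a subunit (Ndufa, Ndufb, Ndufs or Ndufv with a number, Ndufc1, Ndufc2 or Ndufab1), 37 genes of the 36666 listed. Assembly factors, which carry the letters af, were not among them. By textbook position 10 belong to the N arm, 6 to the Q arm and 20 to the membrane arm. The remaining 1, Ndufa4, is now known as a subunit of complex IV and was kept because its symbol matches. The nuclear core subunits, among them Ndufv1, Ndufv2, Ndufs1, Ndufs3, Ndufs7 and Ndufs8, all lie in the N or Q arm.

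The mRNA of these genes was measured in the cerebrum of 11 male C57/Bl6 mice aged 1 year. Of these, 7 were Polg mutator mice, homozygous for the knock-in allele D257A, which impairs the proofreading of the mtDNA polymerase in every tissue. The 4 controls were littermates, 3 of them WT/WT (mice 205, 239 and 246) and 1 WT/D257A (mouse 237), which carries a single mutant allele. Poly(A)+ RNA came from whole cerebral tissue with the cerebellum removed, so the values average over all its cell types, and fewer cells of a type cannot be told apart from less RNA per cell. The study asked how the proteome and transcriptome of the brain differ in these mice, and it also measured mitochondrial proteins from the same animals. Those protein values were not analysed here, and the text below concerns mRNA alone.

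Gene counts summed to between 28249345 (control mouse 246) and 121182250 (control mouse 205) per mouse. In 10 mice they came to 0.744 to 0.775 counts per read that the authors list as aligned, and in mutator mouse 248 to 3.00, with 76.3% of its reads aligned against 88.3% to 94.1%, so the listed reads and the counts of mouse 248 do not match. The members were well covered, with at least 818 counts per gene and mouse, and all 37 passed the filter on low counts. Neuronal Snap25 stood at 2205 ± 139 CPM (counts scaled to an equal library total) in the controls and oligodendrocyte Mbp at 2870 ± 225 (SD, n = 4). Among markers of other tissues, hepatic Alb was below the filter, while Myh6 and Ckm passed it, at means of 4.30 and 0.214 CPM in the controls. Of 3 cerebellar markers, Gabra6 was below the filter and Cbln3 and Pcp2 passed it at low levels. Cbln3 stood at 0.545 to 0.630 CPM in the controls but at 4.54 in mutator mouse 217, 2.48 in mouse 211 and 1.17 in mouse 207, and Gabra6 at up to 0.0641 CPM in the controls but at 1.46 and 1.01 in mice 217 and 211. The mutation is a base change, so the level of Polg, 66.1 ± 2.98 CPM in controls (SD, n = 4) and 63.9 ± 4.18 in mutators (SD, n = 7), is no check of the labels. Values by mouse are CPM scaled with edgeR's TMM factors, and those of the controls are given below in the order 205, 237, 239 and 246.

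In the mutator mice the nuclear complex I mRNAs stood slightly below their level in the controls as a group, and none of them passed the test. The fold change was negative for 34 of the 37 members and positive for 3, namely Ndufs1, Ndufv2 and Ndufb3. The median log2 fold change of the members was -0.08, a decrease by 5.37%, against 0.001 over all 17983 genes tested. With edgeR's quasi-likelihood test and Benjamini-Hochberg adjustment over all genes, an adjusted p-value under 0.05 was reached by 0 of the 37, where 1.24% of all genes tested did (223 genes). DESeq2 also called 0 of them.

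Unadjusted p-values under 0.05 belonged to 8 members, or 21.6%, where 15.8% of all genes tested reached it. All 8 were lower in the mutators, and over all genes 8.58% were lower at that level. Among the 7019 genes with at least the control level of the lowest member, 21.4% had an unadjusted p-value under 0.05, so the share in both directions was close to that of genes equally expressed. The 4 control and 7 mutator values overlapped for every member, where 2.62% of all genes tested had groups that did not overlap.

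The precision was high. Standard errors of the log2 fold change lay between 0.045 and 0.083, and for 35 of the 37 members the whole 95% interval lay within a 1.25-fold change in either direction. The lowest bound of any interval was -0.33, a decrease by 20.6%, for Ndufa1. The highest was 0.16, for Ndufs1. Within the groups, the median SD of a member was 5.75% of its mean in controls and 5.78% in mutators, so the typical difference between the groups was about the size of 1 SD.

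**Figure D1:**
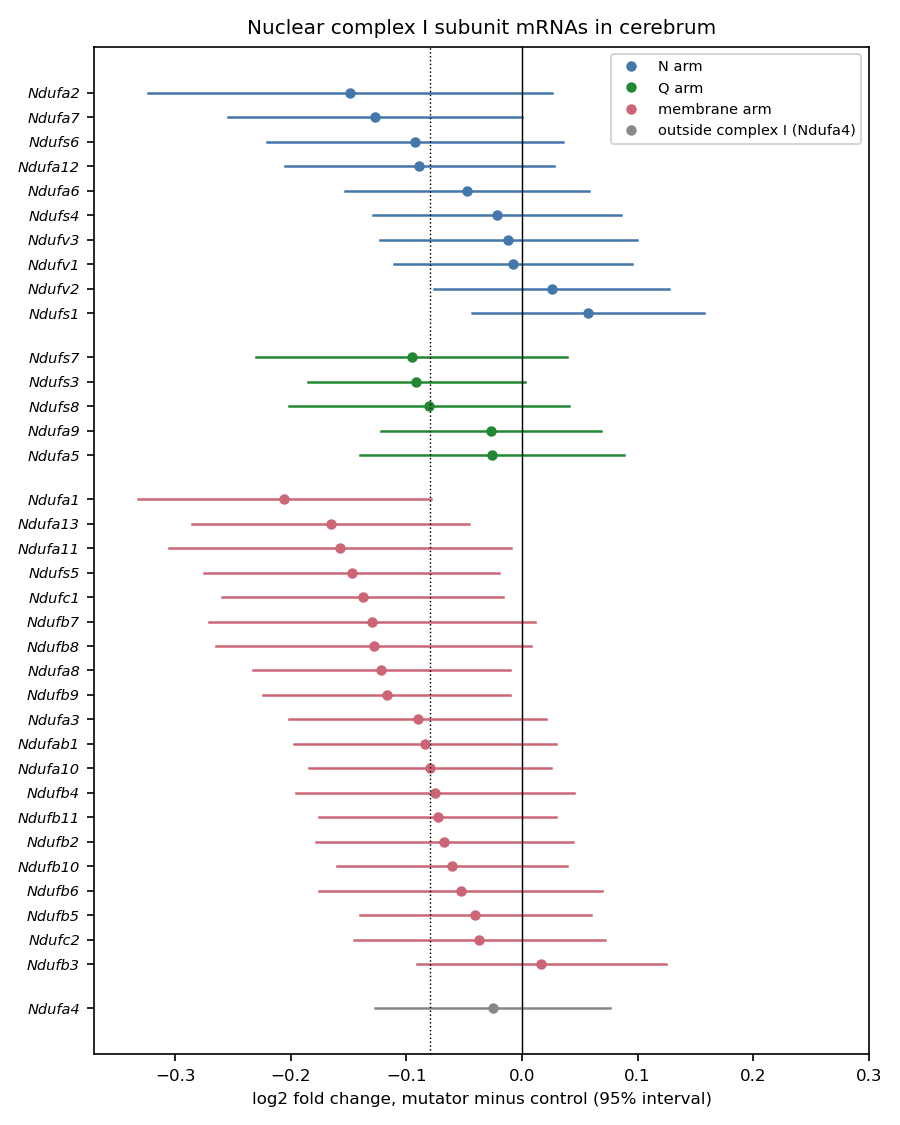
Log2 fold change of the Nduf mRNAs reported here, mutator (n = 7) minus control (n = 4), on the horizontal axis, with lines for the 95% interval, colours for the arm and a dotted line at the median of -0.08 over all 37 members. Most points sit left of 0 and most intervals hold 0, and the lowest point is that of Ndufa1.

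The N arm, which takes up the electrons, had the smallest shift of the 3 arms. Its median log2 fold change was -0.03 over 10 members, and the members ranged from -0.15 (Ndufa2) to 0.06 (Ndufs1). The arm's core and supernumerary subunits lay apart, with medians of 0.03 (n = 3) and -0.09 (n = 7). The difference between these medians was not tested.

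Ndufs1 (chr1:63190170-63223396 in mm9) encodes the largest subunit of the complex, which carries iron-sulphur clusters of the electron path. Its mRNA stood at 162, 144, 158 and 154 CPM in the controls and between 150 and 175 in the mutators, with a median of 164. The highest mutator was mouse 248 and the lowest control was mouse 237. Of the 7 mutators, 4 lay above the highest control, and the groups overlapped. Exons of Ndufs1 overlap those of Gm11602 on the other strand. The log2 fold change was 0.06 (standard error, SE, 0.048, adjusted p = 0.602 by edgeR), the highest of all the members.

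Ndufv1 (chr19:4007497-4012806) encodes the subunit that binds FMN and NADH. By edgeR's fold change its mRNA was lower by 0.524%, the smallest change of all the members. The controls held 119, 128, 117 and 129 CPM and the mutators between 112 and 133, with a median of 123, and its log2 fold change was -0.01 (SE 0.049). Ndufv2 (chr17:66428135-66450899), whose protein holds an iron-sulphur cluster beside the FMN, stood at 94.3, 90.1, 97.6 and 104 CPM in the controls. In the mutators it lay between 91.0 and 106 CPM with a median of 97.4, much the same range as in the controls. Its log2 difference was 0.03 (SE 0.049).

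Of the supernumerary subunits of the N arm, Ndufa7 had the smallest p-value. Ndufa7 (chr17:33961536-33975261) had 34.2, 38.6, 35.9 and 39.8 CPM in the controls, and 29.1 to 36.2 in the mutators with a median of 34.7. All 7 mutators were below the control mean and 3 were below the lowest control. Its log2 fold change was -0.13 (SE 0.061, adjusted p = 0.316 by edgeR).

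Ndufa2, a small subunit with a thioredoxin-like fold, had the largest SD relative to its mean of the members in the controls, at 40.6, 51.6, 45.5 and 58.1 CPM. The mutators ranged from 39.3 to 51.1 with a median of 43.6, and 6 of 7 lay below the control mean. Its log2 fold change was -0.15 (SE 0.083, adjusted p = 0.405 by edgeR). Exons of Ndufa2 overlap those of Tmco6 on the other strand, and the library kit does not mark strand, so reads of the pair cannot be told apart. Exon overlaps on the opposite strand were found for 8 members, Ndufs1 and Ndufs3 among them.

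Ndufa12 (chr10:93661700-93684188), a subunit added late to the N module, had 53.8, 58.8, 53.2 and 64.0 CPM in the controls and 50.02 to 58.5 in the mutators, with a median of 53.5. On the log2 scale the change was -0.09 (SE 0.056, adjusted p = 0.461 by edgeR), and 44.3% of its transcript is at least 97% identical to sequence elsewhere in the genome, where reads may be split. Ndufa6 (chr15:82180569-82184721), a LYR protein that binds an acyl carrier protein, had 58.1, 59.5, 61.5 and 64.4 CPM in the controls. Its mutators spanned 53.4 to 62.3 with a median of 59.9, for a log2 fold change of -0.05 (SE 0.051). The groups overlapped for both genes.

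Ndufs4 (chr13:115078003-115178302) encodes a subunit that joins the N module to the rest of the peripheral arm, and mice without it develop a fatal encephalopathy. Its mRNA had the smallest relative SD of the members among the controls, but not among the mutators. The controls held 46.1, 47.1, 45.8 and 48.8 CPM, a mean of 47.0 ± 1.36 (SD, n = 4), and the mutators 44.0 to 52.0 with a median of 45.8, a mean of 46.2 ± 2.74 (SD, n = 7). Mutator mouse 217 stood above every control, and 4 of the 7 mutators stood below every control. This came to a log2 fold change of -0.02 (SE 0.051, adjusted p = 0.881 by edgeR), with a 95% interval from -0.13 to 0.09. The other N arm members, Ndufv3 and Ndufs6, had log2 fold changes of -0.01 and -0.09.

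In the Q arm, which hands the electrons to ubiquinone, all 6 members had a negative fold change and the median was -0.08, with a range from -0.10 (Ndufs7) to -0.03 (Ndufa5). None had an unadjusted p-value under 0.05. Ndufs3 (chr2:90734791-90744984), an early subunit of the Q module, came closest to that threshold, with 80.6, 85.1, 81.3 and 87.3 CPM in the controls and 74.6 to 83.9 in the mutators with a median of 78.3. Of the mutators, 6 of 7 lay below the lowest control, mouse 207 being the exception. The change on the log2 scale was -0.09 (SE 0.045, adjusted p = 0.329 by edgeR), and 84.4% of the Ndufs3 transcript has a near-identical copy elsewhere in the genome, so its level is uncertain.

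Ndufs7 (chr10:79711866-79719539) encodes the subunit with the last iron-sulphur cluster before ubiquinone. It had 58.1, 68.6, 64.6 and 64.4 CPM in the controls and 50.9 to 65.5 in the mutators with a median of 58.6, and its log2 fold change was -0.10 (SE 0.065). Control mouse 205 was slightly below the mutators' median. Ndufs8 (chr19:3908870-3912717), whose protein carries iron-sulphur clusters too, had 50.2, 55.1, 55.8 and 56.5 CPM in the controls. The mutators spanned 47.4 to 58.9 with a median of 49.9, mouse 217 lying above every control, and the log2 fold change was -0.08 (SE 0.058).

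Ndufa9 (chr6:126771881-126799162), at the junction of the peripheral and membrane arms, had 92.2, 93.9, 98.4 and 106 CPM in the controls and 90.9 to 99.6 in the mutators with a median of 95.6. Its log2 fold change of -0.03 (SE 0.046, adjusted p = 0.827 by edgeR) had a 95% interval from -0.12 to 0.07. The groups overlapped, and control mouse 246 was the highest of all.

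The membrane arm held 7 of the 8 members with an unadjusted p-value under 0.05, namely Ndufa1, Ndufa13, Ndufs5, Ndufc1, Ndufa8, Ndufb9 and Ndufa11. That is 35% of its 20 members, all lower, where 15.8% of all genes tested reached this level and 8.58% did so and were lower. Both shares were larger among the 7019 genes with at least the control level of the lowest member. Of those, 21.4% reached it, and 906 did so and were lower. With control mouse 246 left out, 1 of all 37 members reached it in place of 8. Its median log2 fold change was -0.09 over 20 members, from -0.21 (Ndufa1) to 0.02 (Ndufb3), and 19 were negative. By module, the medians were -0.14 for the ND1 module (n = 4), -0.14 for the ND2 module (n = 5), -0.06 for the ND4 module (n = 5) and -0.10 for the ND5 module (n = 6). Of these 7 members, 6 belong to the proximal ND1 and ND2 modules and none to the ND4 module. These arms and modules share mice and libraries, and the differences between them were not tested.

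Ndufa1 (chrX:34727583-34731158), an X-linked subunit of the proximal membrane arm, had the smallest p-value of all the members. The controls held 30.7, 34.4, 34.2 and 36.996 CPM, a mean of 34.1 ± 2.57 (SD, n = 4). The mutators spanned 26.7 to 33.0 with a median of 29.4, a mean of 29.5 ± 1.98 (SD, n = 7). All 7 mutators lay below the control mean and 6 lay below the lowest control, while mouse 217 fell within the controls. The level was lower by 13.3%, a log2 fold change of -0.21 (SE 0.061, adjusted p = 0.0951 by edgeR). With control mouse 205 left out, the adjusted p-value was 0.0402, and with mutator mouse 217 left out 0.0449, so the call depends on single mice. Near-identical sequence elsewhere in the genome covers 21.2% of the Ndufa1 transcript.

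Ndufa13 (chr8:72418087-72426457), also known as GRIM-19, showed the same arrangement. It had 68.0, 75.8, 73.3 and 81.0 CPM in the controls and 61.6 to 76.5 in the mutators with a median of 65.1. Mouse 217 was again the highest mutator and the other 6 lay below the lowest control. The log2 fold change was -0.17 (SE 0.058, adjusted p = 0.156 by edgeR), and the adjusted p-value was 0.0458 with mouse 217 left out. Exons of Ndufa13 overlap those of Tssk6 on the other strand.

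Ndufs5 (chr4:123389953-123395445), a subunit on the side of the intermembrane space, had 58.6, 60.3, 57.7 and 70.1 CPM in the controls and 51.2 to 63.7 in the mutators with a median of 55.3. Here too 6 of 7 mutators lay below the lowest control and mouse 217 above it. On the log2 scale the change was -0.15 (SE 0.061, adjusted p = 0.239 by edgeR), and 64.3% of the transcript is near-identical to sequence elsewhere. Ndufb9 (chr15:58765365-58771044), a LYR protein of the distal end, had 117, 125, 114 and 129 CPM in the controls and 106 to 124 in the mutators with a median of 108. This came to a log2 fold change of -0.12 (SE 0.051, adjusted p = 0.268 by edgeR), with 5 mutators below the lowest control.

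The other 3 members of the arm with an unadjusted p-value under 0.05 are named here because that count includes them. Ndufa8 (chr2:35891846-35904926), of the intermembrane space side, had 58.2, 60.03, 60.7 and 66.0 CPM in the controls and 50.6 to 61.3 in the mutators with a median of 56.6, a log2 change of -0.12 (SE 0.053, adjusted p = 0.268 by edgeR). For Ndufc1 (chr3:51208599-51212910), a small membrane subunit, these were 26.0, 25.6, 25.7 and 29.7 CPM, 22.8 to 27.0 CPM and 24.0 CPM, a log2 change of -0.14 (SE 0.058, adjusted p = 0.249 by edgeR). In both genes 6 of 7 mutators lay below the lowest control and mouse 217 was the exception. Near-identical sequence elsewhere covers 9.7% of the Ndufc1 transcript. Ndufa11 (chr17:56857185-56863671), between the proximal and distal parts of the arm, had 45.4, 55.1, 50.1 and 57.3 CPM in the controls. Its mutators spanned 40.8 to 52.6 with a median of 47.6, with 3 below the lowest control, and the log2 change was -0.16 (SE 0.071, adjusted p = 0.284 by edgeR).

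The distal ND4 module had the smallest median shift of the 4 modules. Ndufb4, Ndufb5, Ndufb6, Ndufb10 and Ndufb11 had log2 fold changes of -0.08, -0.04, -0.05, -0.06 and -0.07, and none had an unadjusted p-value under 0.05. Near-identical copies cover 49.8% of the Ndufb4 transcript and 64.1% of that of Ndufb11, the other X-linked member. In the ND5 module, Ndufb8 and Ndufb7 stood at -0.13 each and Ndufab1 at -0.08, while Ndufb3 stood at 0.02. The remaining members, Ndufa3 of the ND1 module and Ndufa10 of the ND2 module, had log2 fold changes of -0.09 and -0.08. Leaving out all members with a near-identical copy left 28, with a median of -0.07 and 25 lower. Of these 28, 5 had an unadjusted p-value under 0.05 by edgeR, or 17.9%, all lower. Over all genes tested 15.8% did, and 8.58% did and were lower. Ndufa1, Ndufc1 and Ndufs5 are among the members left out.

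Ndufc2 (chr7:104548513-104556312), a small subunit of the ND2 module, stood at 51.0, 49.97, 53.5 and 53.6 CPM in the controls. The mutators spanned 47.3 to 55.8 with a median of 49.6, so that 4 lay below every control and mouse 217 above every control. The change on the log2 scale was -0.04 (SE 0.052, adjusted p = 0.784 by edgeR), with a 95% interval from -0.15 to 0.07. Ndufb2 (chr6:39542573-39553381), in the ND5 module, had 41.9, 40.2, 43.5 and 42.6 CPM in the controls and 37.9 to 44.6 in the mutators with a median of 38.7, a log2 fold change of -0.07 (SE 0.053). Its exons overlap those of Adck2, Braf and Gm16272. Ndufa4, outside complex I, had a log2 fold change of -0.03 (SE 0.049).

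**Figure D2:**
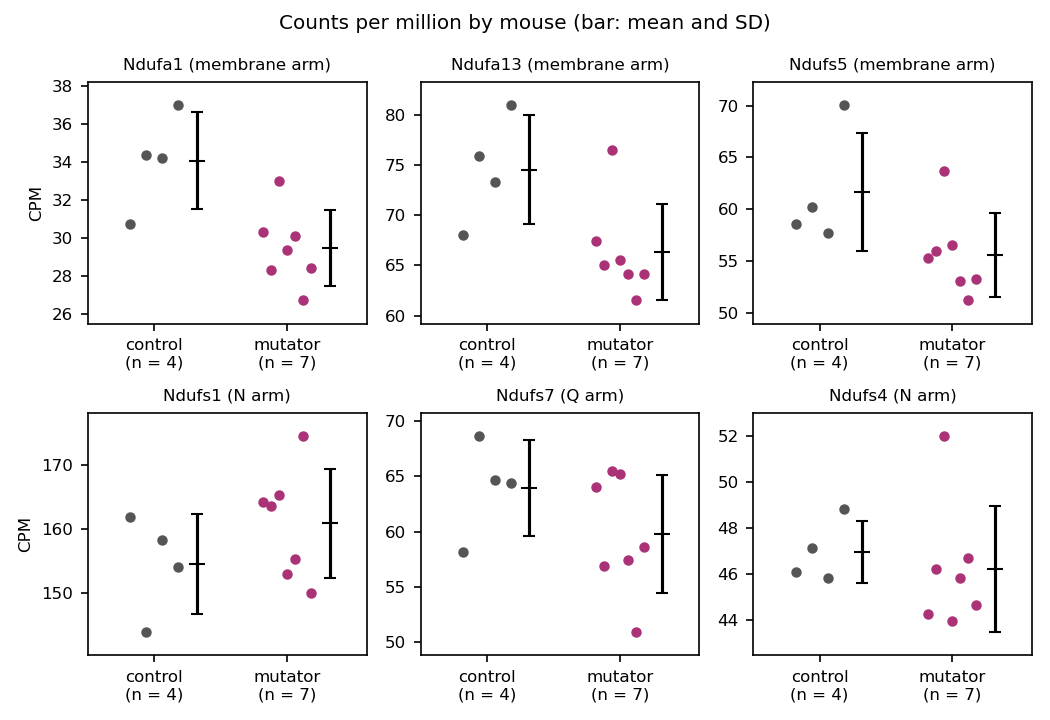
CPM by mouse of 6 subunit mRNAs, for the 4 controls and 7 mutators, with bars for the mean and SD and vertical axes that do not start at 0. For Ndufa1, Ndufa13 and Ndufs5, 6 of 7 mutators lie below the lowest control, while Ndufs1, Ndufs7 and Ndufs4 overlap more widely.

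The members tended to move together from mouse to mouse, but not all did. Between pairs of members, the correlation of their deviations from the group means had a median of 0.56. It ranged from -0.75, for Ndufs1 with Ndufb7, to 0.96, for Ndufb6 with Ndufv2. Among the 3 core members of the N arm the median was 0.25. Relative to the control mean of each gene, the median log2 deviation over the 37 members was 0.09 in control mouse 246 and -0.07 in control mouse 205, and it lay between -0.16 (mouse 248) and 0.04 (mouse 217) in the mutators. Mouse 246 had the highest control value for 32 of the 37 members. Among the mutators, mouse 217 was the highest for 27 members and mouse 248 the lowest for 22. The same median over all genes stayed between 0.00062 and 0.0107 in each mouse. The TMM scaling itself holds that median near 0, so it is no test of whether the movement is particular to the members.

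The summed level of the 37 members was 2489, 2568, 2545 and 2754 CPM in the controls and 2349 to 2660 in the mutators, with a median of 2445. Of the mutators, 5 lay below the lowest control and none above the highest. In each of the 7 mutators the median deviation of the membrane arm was below that of the N arm, with values from -0.18 to 0.03 for the membrane arm and from -0.14 to 0.06 for the N arm. In the controls both arms spanned about the same range, from -0.06 to 0.10 and from -0.06 to 0.09. The deviations are taken from the control means, so both arms lie around 0 in the controls by construction. The 7 mutators share that baseline and are not independent observations of a difference between the arms.

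By summed counts mouse 246 had the smallest library and mouse 205 the largest, so the level of the members fell as depth rose among the controls. Among the mutators, the median deviation was -0.10 in mouse 249, the shallowest by summed counts, and -0.16 in mouse 248, the deepest. Between them, mice 211, 217, 236, 240 and 207, in order of depth, stood at -0.10, 0.04, -0.08, -0.08 and -0.06, with no steady fall. By the reads listed as aligned, mouse 248 would be the shallowest of all mice, at 30449029. With the log2 of the total count as a covariate, the median log2 fold change of the members was -0.08 and 34 were lower. That fit took the summed counts as depth, for mouse 248 too. The part of depth in the shift was not tested beyond this fit. With mouse 246 left out, the median was -0.05, 30 members were lower and 1 had an unadjusted p-value under 0.05, in place of 8. With mouse 248 left out there were 2 such members, and with mouse 249 left out 4. With mice 246 and 248 both left out, an alternative added after seeing the data, the median was -0.03, with 28 lower and 1 at that level. With mutator mice 211 and 217 both left out, also added after seeing the data, the median was -0.09, with 34 lower and 11 at that level. Mouse 248, whose counts exceed its listed reads, was also the library with the largest share of counts in no exon bin, at 23.4%, where the other mice with exon counts had 20.6% to 22.5%.

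**Figure D3:**
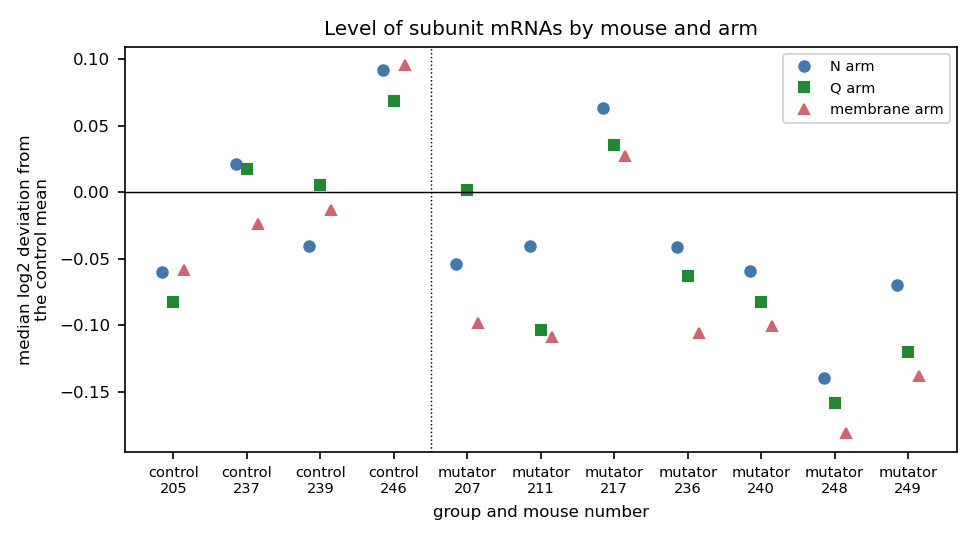
Median log2 deviation of the members of each arm from their control means (vertical axis) in each of the 11 mice (horizontal axis), with circles for the N arm, squares for the Q arm and triangles for the membrane arm. The 3 arms rise and fall together, with control mouse 246 at the top, mutator mouse 248 at the bottom and mutator mouse 217 above the other mutators.

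Levels among the members were compared per kilobase of coding transcript, the median over each gene's annotated coding transcripts. In the controls they spanned 18.7-fold, from 17.4 CPM per kilobase for Ndufb2 to 327 for Ndufa4, with a median of 71.7. Within complex I, Ndufb9 was highest at 186, and the N arm was led by Ndufa6 at 109. The lowest of the Q and N arms were Ndufs8, at 56.5, and Ndufs4, at 30.6. Ndufs1 stood at 55.4. Ndufb2 and Ndufa11 have long annotated transcripts, of 2413 and 2661 bp, and low levels per kilobase go with them.

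Coding transcripts under 1000 bp belonged to 24 of the 37 members. Their median log2 fold change was -0.08, and that of the 13 longer members -0.07. Short genes as a class were also lower more often, with 57.7% of the 2044 short genes tested below 0 and a median of -0.03, against 48.6% of the 13507 longer genes. At the members' levels of expression, 62.5% of 698 short genes were below 0 and their median was -0.03. The part of transcript length in the shift was not tested.

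For the usage of exons within the genes, counts per exon bin were available for 3 WT/WT and 7 mutator mice. Of 360 tested bins in the 37 genes, 0 had an adjusted p-value under 0.05 with edgeR's diffSpliceDGE, where 0.0232% of all 206930 bins did. Unadjusted p-values under 0.05 belonged to 9 bins, or 2.5%, where 1.91% of all bins reached it, and limma's diffSplice gave 10. The bins lay in 5 genes. A bin of Ndufa3 downstream of an annotated coding exon (chr7:3569294-3569321) held 0.485% ± 0.0264 of the gene's counts in WT/WT mice (SD, n = 3) and 0.791% ± 0.127 in mutators (SD, n = 7), a log2 change in usage of 0.71 on 9 to 48 counts per mouse (adjusted p = 1.00 by edgeR). In Ndufab1, the mitochondrial acyl carrier protein, 3 adjacent bins at the 5′ end shared most of their reads, and the longest (chr7:129245251-129245342) held 7.55% ± 1.11 in WT/WT mice (SD, n = 3) and 5.89% ± 1.09 in mutators (SD, n = 7). No member thus had a bin with a usage difference past the adjusted threshold.

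The mRNAs of the mtDNA-encoded subunits had a median above 0, and parts of mtDNA have near-identical nuclear copies, so their reads may be split. Of the 7 complex I genes of mtDNA, mt-Nd4l was below the filter, and the median log2 fold change of the other 6 was 0.08, 5 of them being higher. mt-Nd5 had 4449 ± 511 CPM (mean ± SD of 4 controls) against 5224 ± 328 (7 mutators), which is a log2 change of 0.23 (SE 0.065, adjusted p = 0.0807 by edgeR). For mt-Nd6 these were 964 ± 165 CPM and 1149 ± 99.8 CPM (SD), a log2 change of 0.25 (SE 0.102, adjusted p = 0.247 by edgeR). Both genes were lowest in control mouse 239, at 3695 and 727 CPM. The library kit does not mark strand, so reads from the strands of mtDNA cannot be told apart. The values of mt-Nd5 and mt-Nd6 may thus not be separate observations. The log2 fold changes of mt-Nd1, mt-Nd2, mt-Nd3 and mt-Nd4 were 0.05, 0.01, 0.11 and -0.05. None of the 6 passed the test, and whether they differ as a group from the nuclear members was not tested.

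Assembly factors bind the subunits on their way into the complex and then leave it. For the 12 in the table the median log2 fold change was 0.04, with 5 lower and 7 higher, from -0.11 (Ndufaf3) to 0.15 (Nubpl), and 0 had even an unadjusted p-value under 0.05. Ndufaf3 and Ndufaf4, which work as a pair in building the Q module, had log2 fold changes of -0.11 and 0.11.

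Nuclear subunits of complexes III, IV and V also had medians below 0. Complex II, which has no mtDNA-encoded subunit, stood at a median of -0.001 (n = 4), with 2 lower. For complex III it was -0.09 (n = 9), with 7 lower, for complex IV -0.11 (n = 10), with 10 lower, and for complex V -0.05 (n = 15), with 12 lower. Of these 38 genes, 1 passed the test, where 1.24% of all genes did. It was Atp5d of complex V, with 127 ± 10.2 CPM (mean ± SD of 4 controls) against 107 ± 7.87 (7 mutators), which is a log2 change of -0.24 (SE 0.059, adjusted p = 0.0462 by edgeR). Unadjusted p-values under 0.05 were found for 0 genes of complex II, 2 of complex III (22.2%), 5 of complex IV (50%) and 3 of complex V (20%), all lower. Over all genes tested 15.8% reached this level in either direction and 8.58% were lower at it. The shares of complexes III and V lay above both figures but nearer the first, and all their genes at this level were lower. The median of the nuclear members of complex I lay between those of complexes V and III, and the differences between the complexes were not tested.

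**Figure D4:**
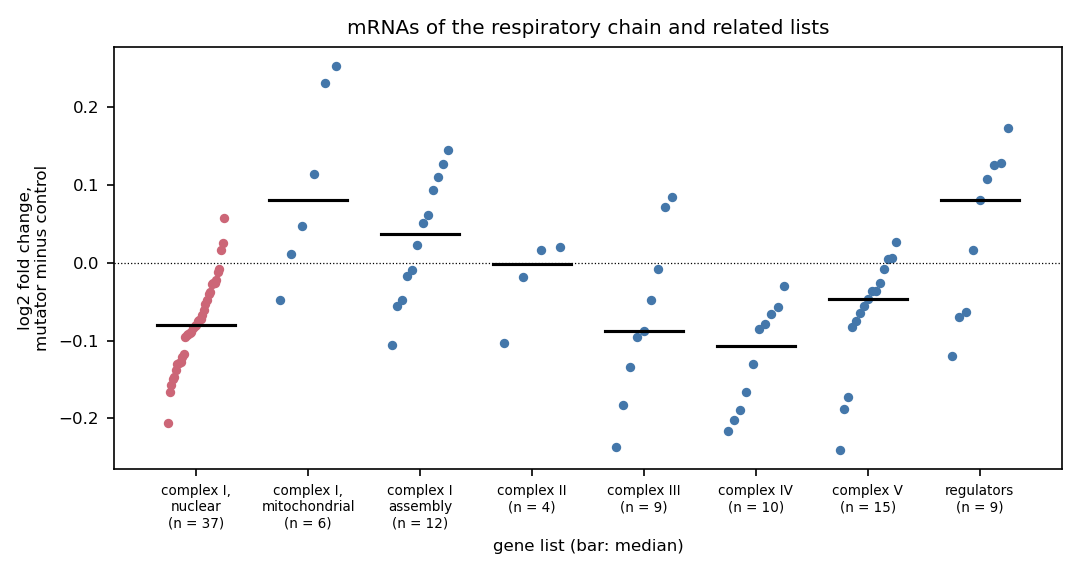
Log2 fold change (vertical axis) of each tested gene in 8 lists (horizontal axis), with bars for the medians. The nuclear complex I mRNAs, with a median of -0.08, sit beside those of complexes III to V, and the mitochondrial complex I genes, the assembly factors and the regulators have medians above 0.

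Several regulators of nuclear respiratory genes were measured. Of 9, 6 were higher and 3 lower, with a median log2 fold change of 0.08. Gabpa, the DNA-binding part of the ETS factor NRF-2, had 25.7 ± 1.11 CPM (mean ± SD of 4 controls) against 29.1 ± 2.70 (7 mutators), which is a log2 change of 0.17 (SE 0.067, adjusted p = 0.203 by edgeR). Gabpb1, its partner, had a log2 fold change of 0.13 and Esrra, a nuclear receptor, -0.12, both with an unadjusted p-value under 0.05. Gabpb1 stood at 16.2 to 17.0 CPM in the controls and 17.4 to 18.9 in the mutators. It was the only 1 of the 9 whose groups did not overlap, where 2.62% of all genes tested had such groups. Those of the coactivators Ppargc1a, Ppargc1b and Pprc1 were 0.08, 0.13 and -0.07. Those of Nrf1, Yy1 and Tfam were -0.06, 0.02 and 0.11. None of the 9 passed the test.

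Since the members tended to move together, their promoters were searched on both strands for the letters CCGGAAG (bound by ETS factors such as NRF-2), GCATGCGC (NRF1) and AAGATGGCG (YY1). RefSeq windows of build GRCm38.p6, from 250 bases before to 50 after each start, were found for 33 of the 37 members. The ETS letters were in 4 of the 33, or 12.1%, and in 9.93% of all 27025 genes with such a window. The NRF1 letters were in 3, or 9.09%, and in 3.05% of all genes. The YY1 letters were in 5, or 15.2%, and in 1.64% of all genes. Windows with any of the motifs belonged to 12 of the 33 members, and to 13.6% of all genes.

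The matches are shown for members with an unadjusted p-value under 0.05 and for core subunits, since these carry the values above. Ndufa11 holds the NRF1 letters on the other strand too, overlapping the match shown. Capitals mark the motif, the strand is that of the gene, and coordinates are those of GRCm38.p6 and not of mm9.
Ndufa8, NRF1, chr2:36049328-36049357, minus strand: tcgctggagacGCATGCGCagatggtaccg
Ndufa11, NRF1, chr17:56717693-56717722, plus strand: ctgcactgcgcGCATGCGCgcacgccttgt
Ndufc1, YY1, chr3:51408914-51408943, minus strand: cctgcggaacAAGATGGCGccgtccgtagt
Ndufs7, YY1, chr10:80249463-80249492, plus strand: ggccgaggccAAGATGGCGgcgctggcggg
Ndufs3, ETS, chr2:90904730-90904759, minus strand: cccgcgtccgcCCGGAAGaagagtcactgc
Ndufs3, ETS, chr2:90904702-90904731, minus strand: gcacatttccaCTTCCGGtccgtgcccttg
Ndufs8, ETS, chr19:3912741-3912770, minus strand: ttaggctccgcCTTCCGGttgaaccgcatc

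In Ndufs8 and the second window of Ndufs3 the capitals are the ETS letters as read on the other strand. Counted from the start as base 1, the YY1 letters began between bases 23 and 36 of the transcript in all 5 members that hold them, which are Ndufa9, Ndufc1, Ndufs4, Ndufs6 and Ndufs7. Their log2 fold changes ranged from -0.14 for Ndufc1 to -0.02 for Ndufs4. A match of letters is no evidence that a factor was bound in these mice.

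Marker mRNAs of cell types gave the setting of these values. The summed level of the 4 tested neuronal markers was 5004 to 5408 CPM in the controls and 4864 to 5257 in the mutators, with a median log2 fold change of -0.01, although Slc17a7 of excitatory neurons had one of -0.21 (adjusted p = 0.0995 by edgeR). The 4 microglial markers summed to 160 to 204 CPM in the controls and 151 to 173 in the mutators, with 4 of 4 lower and a median log2 fold change of -0.19. Those of endothelium summed to 116 to 137 CPM in the controls and 130 to 190 in the mutators, with 3 of 4 higher and a median of 0.28. For astrocytes the sums were 1646 to 1793 and 1611 to 1920 CPM and the median -0.02, and for oligodendrocytes 4297 to 4963 and 4310 to 6079 CPM and -0.02. Both upper ends are mutator mouse 217, the highest mutator for most Nduf members, and the next highest mutators stood at 1768 and 5052 CPM. Members of these lists lay on both sides of 0, with log2 fold changes of 0.22 for Gfap, -0.26 for Mog and 0.15 for Mobp, and none passed the test. The part of cell composition in the shift of the Nduf mRNAs was not tested.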

How the data were processed

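RNA from 11 cerebra, 7 mutator and 4 control, was sequenced from poly(A)+ libraries as paired ends. Per the labels and the study's methods, alignment to mm9 was done with TopHat2 2.0.6 and counting per gene and per exon bin with HTSeq, and the authors deposited the counts without normalization. Exon bin counts were used for 10 mice. Tables of the authors' own comparisons hold fold changes and p-values and were not used. All per-sample count columns were used, and the authors' read totals served only to check depth.

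Mutator and control counts were compared by the quasi-likelihood test of edgeR 4.0.16 (R 4.3.3), robust, after filterByExpr and TMM scaling. Adjustment was that of Benjamini and Hochberg over all genes tested, with a threshold of 0.05. The F statistic gave the standard errors (SE). CPM used the TMM factors, and overlap was judged on log2 CPM with a prior count of 2. Exon bins were tested with diffSpliceDGE. DESeq2 1.42.0, limma 3.58.1 and the other alternatives are given at the end. Near-identical copies were sought with BLAST 2.17.0 against the mm9 genome, and gene positions are those of an mm9 annotation. On simulated counts edgeR recovered 151 of 200 changed genes with 6 false calls among 17818 genes. Recovery of shifts as small as those of the Nduf members was not tested separately.

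The members and gene lists were chosen with earlier results of these data known. Values by mouse are given for core subunits, the 3 members of each arm with the smallest p-values, those with the highest and lowest level per kilobase in each arm, and 4 that the study names (Ndufs4, Ndufc2, Ndufs8 and Ndufa9). Each library is a separate mouse. Depth ranged from 28249345 to 121182250 counts. Protein values and peptide data were not analysed here. Values of 1 member are not reported here, but it is included in the counts and medians.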

Additional observations from a re-analysis of the deposited data

Results flagged for a closer look

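Among 82 groups of values checked for a single distant mouse by Dixon's criterion, 7 were flagged, where about 4.1 are flagged by chance (1 in 20). The figure given is the gap to the nearest mouse divided by the range of the group. Mutator mouse 217 was the highest of the 7 mutators for Ndufa13 (0.608), at 76.5 CPM against 61.6 to 67.4 in the others. The same mouse stood apart for Ndufb6 (0.657), at 32.6 against 26.6 to 28.7 CPM, for Ndufs4 (0.66), at 52.0 against 44.0 to 46.7 CPM, and for Ndufs5 (0.574), at 63.7 against 51.2 to 56.5 CPM. Its median log2 deviation over the membrane arm (0.602) was 0.03, against -0.18 to -0.10 in the other mutators. Control mouse 246 was the highest control for Ndufa5 (0.845), at 48.2 against 40.01 to 41.3 CPM, and for Ndufc1 (0.908), at 29.7 against 25.6 to 26.0 CPM. Both mice were high for most members at once, so the flags are not independent of each other.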

How the results depend on the processing

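Under 22 alternatives the members' median stayed below 0. It ranged from -0.10 to -0.05 with each mouse left out in turn, was -0.03 with mice 246 and 248 both left out and -0.09 with mice 211 and 217 both left out (both added after seeing the data), and ranged from -0.08 to -0.06 over the other alternatives. The number of members lower in the mutators stayed between 28 and 34. The members with an adjusted p-value under 0.05 were 0 to 2 with each mouse left out (Ndufa1 at 0.0402 and 0.0449, Ndufa13 at 0.0458) and 0 otherwise. Those with an unadjusted p-value under 0.05 were 1 to 12 with each mouse left out, 1 without mice 246 and 248, 11 without mice 211 and 217, and 6 to 10 otherwise. The count over all genes was 616 with DESeq2, 346 without the filter, 47 with exon bin sums, 61 without mice 246 and 248, and 50 to 412 with each mouse left out. The count over all exon bins was 22 with limma and 5 to 189 with each mouse left out, and none lay in a member under any of the 12 alternatives for bins. Values near 0 changed sign: Ndufv1 was 0.0178 with exon bin sums and 0.0043 with library size alone, and with each mouse left out it ranged from -0.0308 to 0.0156, Ndufv2 from -0.00386 (without mouse 237) to 0.0612 and Ndufa9 from -0.0547 to 0.0127 (without mouse 246). The cause was not tested. No paired analysis was possible because the labels give no shared numbers between mutator and control mice. With 4 controls, of which mouse 246 is the shallowest library, the members' shift rests on few mice, and the 95% interval of a single member reached a median of 0.11 to either side (log2).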
